A study of Mus musculus with 27 samples.

Results

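TCDD (2,3,7,8-tetrachlorodibenzo-p-dioxin) is a persistent organochlorine that activates the aryl hydrocarbon receptor (AhR). Livers of mice given 0.3 µg/kg TCDD (3 libraries) were compared with livers of mice given sesame oil vehicle (3 libraries). These 6 libraries of the 27 in the series were chosen by their dose and treatment labels, and no measured value entered the choice. All mice were female ovariectomized C57BL/6 animals with a labelled age of 120 days, gavaged once every 4 days over 92 days, and whole liver RNA was sequenced. One label also calls the gavage daily. The other 7 dose groups, of 3 libraries each, ran from 0.01 to 30 µg/kg, and the libraries at 0.1 and 1 µg/kg were used here as the neighbouring doses. Nothing in the labels ties samples to litters or days. A p-value sets a difference against the spread between livers within dose groups, estimated from all 27 libraries and not from these 6 alone.

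The AhR is a ligand-activated transcription factor. With its partner ARNT it binds xenobiotic response elements, whose core is GCGTG, and switches on a battery of drug-metabolizing genes, with Cyp1a1 as the classic readout in liver. The circadian clock is a feedback loop of related proteins: BMAL1 (Arntl) with CLOCK or NPAS2 binds E-boxes, CACGTG, and drives the period and cryptochrome genes, the REV-ERB repressors (Nr1d1, Nr1d2) and the PAR bZIP factors Dbp, Tef and Hlf. REV-ERB proteins in turn repress Arntl, Npas2, Cry1 and Nfil3. The liver clock times much of metabolism, and its genes are strongly rhythmic over the day.

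Depth differed within the dosed group. The 0.3 µg/kg libraries held 13213761, 434011 and 18171217 counts on genes, and the vehicle libraries held 26212424, 19906704 and 29460863. In the second 0.3 µg/kg library 1 count equals 2.87 CPM (counts scaled to library size, per 1e6), and 4188 of the 15121 tested genes had no count there, against 143 to 157 in the other 0.3 µg/kg libraries and 87 to 138 in vehicle libraries. This library stood apart in other ways: its log2 CPM correlated at 0.904 and 0.910 with the others of its group, which correlated at 0.964 with each other, and 2.56% of its counts were mitochondrial, against 4.79% and 6.12%. Results are therefore also given without it. The 0.3 µg/kg libraries carry sequencing indices that no vehicle library carries, so dose and index cannot be told apart. The 10 hepatocyte markers had a summed level of 134000 to 256400 CPM at 0.3 µg/kg and 140000 to 258300 CPM in vehicle livers. Of the 6 pancreatic acinar markers 5 had no count in any of the 6 libraries.

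The 0.3 µg/kg livers held 94 genes above and 85 below the level of vehicle livers (edgeR quasi-likelihood test, Benjamini-Hochberg adjusted p below 0.05, which is what "called" means below). That is 179 of 15121 genes, or 1.18% (0.622% higher and 0.562% lower). An unadjusted p below 0.05 was found for 1526 genes. The median log2 fold change of all tested genes was -0.023, while the called genes had a median fold of 2.88 upward and 2.15 downward. Cyp1a1, the clock gene Dbp and Nptx1 were among the largest rises, and Npas2 and Arntl of the clock, the crosslinking enzyme gene Loxl4 and the phosphate transporter gene Slc34a2 among the largest falls. Protein-coding genes made up 90 of the 94 rises and 83 of the 85 falls. Among the called genes, 66 rises and 82 falls showed no overlap between the 3 and 3 libraries, where 5.52% of all tested genes lay entirely higher and 11.1% entirely lower (16.6% in all). Without the shallow library 169 genes were called, 152 of them among the 179. The third 0.3 µg/kg library mattered more: without it 53 genes were called, and 46 of the 179 were among them. Without the first vehicle library the count was 109, and without the third it was 104.

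**Figure D1:**
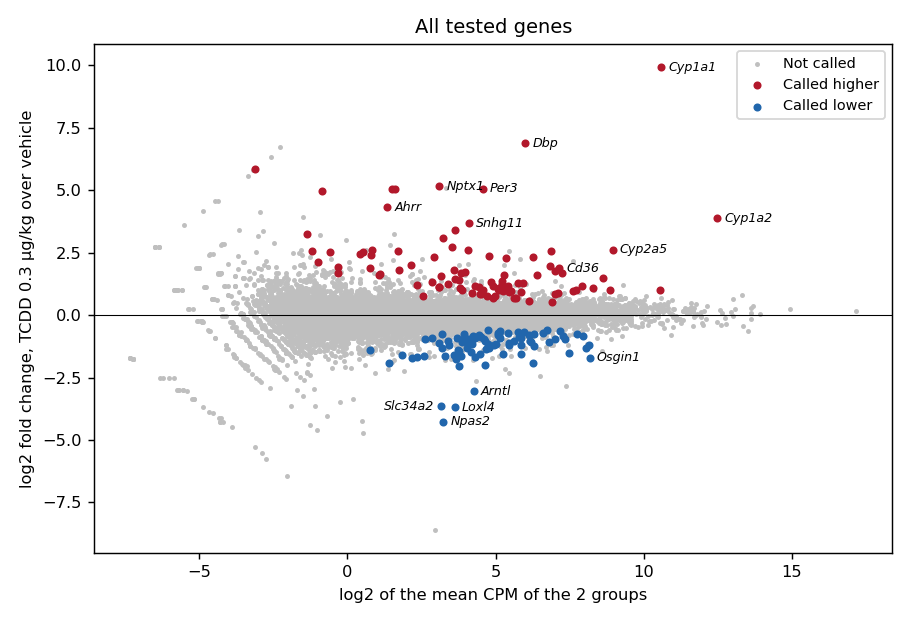
Log2 fold change of TCDD 0.3 µg/kg over vehicle (y axis) against the log2 of the mean CPM of both groups (x axis) for all tested genes with a count in the 6 libraries. Red points are the 94 called rises, blue points the 85 called falls and grey points genes that were not called. Cyp1a1 stands highest at 9.93, and Npas2 is the lowest of the called falls at -4.27.

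The AhR battery rose in part. Of its 11 tested members 5 were called higher and 0 lower, against 0.622% of all genes called higher, and the median log2 fold change of the 11 was 1.18. The 5 were Cyp1a1, Cyp1a2, Ahrr, Nqo1 and Cyp1b1. Without the shallow library the same 5 were called. The count was 3 without the third 0.3 µg/kg library and 4 without any 1 of the vehicle libraries.

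Cyp1a1, a cytochrome P450 that oxidizes aromatic hydrocarbons, had 2122, 3543 and 3528 CPM in the 0.3 µg/kg livers, against 3.69, 3.19 and 2.49 CPM in vehicle livers. Every dosed liver lay far above every vehicle liver, and the shallow library sat beside the third. The log2 fold change was 9.93 (SE 0.32, edgeR adjusted p = 1.38e-17) and 9.81 without the shallow library. Cyp1a2, its neighbour on chromosome 9 and the main hepatic oxidase of caffeine, had 7656, 12266 and 12316 CPM at 0.3 µg/kg, against 777, 664 and 743 CPM in vehicle livers. The groups did not overlap, and the 14.7-fold difference (adjusted p = 5.84e-11) was kept in all 6 fits that left out 1 library. In GRCm38, Cyp1a1 spans 57687928 to 57703824 on the plus strand and Cyp1a2 spans 57676937 to 57683703 on the minus strand.

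Ahrr encodes the AhR repressor, a feedback inhibitor that competes for ARNT. Its level was 2.22, 8.62 and 3.89 CPM in the 0.3 µg/kg livers, against 0.224, 0.105 and 0.120 CPM in vehicle livers. All 3 dosed livers lay above all vehicle livers, although the middle value rests on 3 counts. The log2 fold change was 4.33 (SE 0.39, adjusted p = 9.07e-08) and 4.25 without the shallow library.

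The remaining called members moved less. Nqo1, a quinone reductase, measured 26.2, 22.99 and 31.97 CPM at 0.3 µg/kg, against 12.01, 13.1 and 12.6 CPM in vehicle livers. The groups were apart by a narrow but clear margin. Its 2.26-fold rise (adjusted p = 0.00164) missed the threshold without the third dosed library (adjusted p = 0.0694, and 0.00209 to 0.0694 over the 6 leave-one-out fits). Cyp1b1, an extrahepatic P450 in normal tissue, had 1.70, 5.75 and 2.70 CPM at 0.3 µg/kg, against 0.821, 0.784 and 0.682 CPM in vehicle livers. The highest of these values rests on 2 counts. Its log2 fold change of 1.59 (SE 0.38, adjusted p = 0.0284) lost its call without the third dosed library (0.421), without any vehicle library (0.0795 to 0.136) and with only the 6 libraries fitted (0.0802), and was 1.52 without the shallow library (adjusted p = 0.0477).

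The other 6 members were not called. Tiparp, a mono-ADP-ribosyltransferase that shuts AhR signalling down, had 7.61, 0 and 5.67 CPM at 0.3 µg/kg, against 4.29, 5.81 and 5.86 CPM in vehicle livers. Its groups overlapped. Nfe2l2, which encodes the oxidative stress factor NRF2, had 99.4, 80.5 and 104 CPM, against 77.9, 57.8 and 72.6 CPM. Those groups were just apart, with a log2 fold change of 0.48 (adjusted p = 0.209). Ugt1a6a (log2 fold change 0.72, adjusted p = 0.152) and Ugt1a6b (-0.17, adjusted p = 0.878) are glucuronosyltransferases that share 50.3% and 60.6% of their exonic bases with other genes of the same strand. Reads in shared bases can be left uncounted as ambiguous. Aldh3a1 was almost without reads, at 0, 0 and 0.0659 CPM against 0.0373, 0 and 0 CPM. Gsta1 reached 0.0739, 0 and 1.58 CPM, against 0.224, 0 and 0.201 CPM. None of the 6 tested genes of the receptor complex was called: Ahr itself stood at 44.5 ± 9.94 CPM at 0.3 µg/kg and 48.2 ± 10.4 CPM in vehicle livers (SD, n = 3 each), and Arnt at 40.2 ± 5.41 and 46.4 ± 4.74 CPM.

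**Figure D2:**
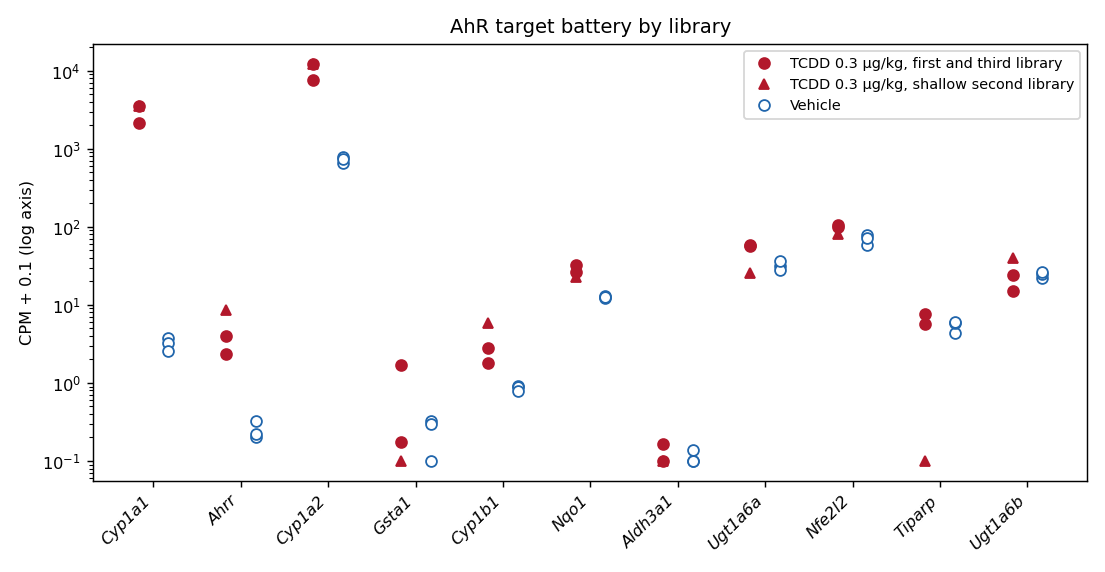
Level of each of the 11 AhR battery genes in each library, as CPM + 0.1 on a log axis. Filled red marks are the TCDD 0.3 µg/kg livers, with a triangle for the shallow second library, and open blue circles are the vehicle livers. Cyp1a1, Cyp1a2, Ahrr, Nqo1 and Cyp1b1 show no overlap between the groups, nor does Nfe2l2, while Tiparp and Ugt1a6b do.

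The promoters of 3 of these genes are printed to show where the AhR core stands beside a gene that rose. The sequences are RefSeq's, on GRCm38.p6, and each is the 250 bases before the annotated start, read 5′ to 3′ along the gene, with every GCGTG on either strand in capitals (CACGC where it lies on the opposite strand).
Cyp1a1, chr9:57697363-57697612, plus strand: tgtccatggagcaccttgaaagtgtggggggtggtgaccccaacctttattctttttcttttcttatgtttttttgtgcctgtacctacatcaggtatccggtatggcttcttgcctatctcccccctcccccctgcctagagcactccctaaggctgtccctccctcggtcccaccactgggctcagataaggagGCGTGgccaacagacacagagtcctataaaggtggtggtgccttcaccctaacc
Ahrr, chr13:74292332-74292581, minus strand: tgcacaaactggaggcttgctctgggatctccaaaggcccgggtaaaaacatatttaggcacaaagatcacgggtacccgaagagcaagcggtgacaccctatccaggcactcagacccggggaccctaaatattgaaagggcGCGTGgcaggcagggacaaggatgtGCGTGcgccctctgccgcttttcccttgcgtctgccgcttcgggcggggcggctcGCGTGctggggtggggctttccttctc
Cyp1b1, chr17:79715062-79715311, minus strand: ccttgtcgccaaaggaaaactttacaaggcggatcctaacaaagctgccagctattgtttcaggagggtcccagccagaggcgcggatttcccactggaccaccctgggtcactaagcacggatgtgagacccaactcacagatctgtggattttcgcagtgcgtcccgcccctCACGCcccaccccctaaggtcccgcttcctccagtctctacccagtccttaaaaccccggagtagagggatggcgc
The first base of the match stands 54 bases before the start in Cyp1a1 and 76 bases before it in Cyp1b1. Ahrr holds 3 matches, at 107, 82 and 27 bases before the start. The promoters of Cyp1a2 and Nqo1 hold none in this window, which says nothing on binding further away. Over all promoters of tested genes 42.2% of 13932 hold at least 1 GCGTG and 4.94% hold 3 or more, so 1 match is common and 3 are less so. A match is a description of these letters, not a measured site.

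The clock genes formed the other large group of calls, and they moved in both directions. The list called the activator arm holds Arntl and its partners together with genes that REV-ERB proteins repress, of which Nfil3 and Cry1 are themselves repressors. Of its 7 tested members 4 fell and 0 rose (0.562% of all genes fell), with a median log2 fold change of -1.64. Of 12 tested period, REV-ERB and PAR bZIP genes 10 rose and 0 fell (0.622% of all genes rose), with a median of 2.43 and every member above 0. Of 7 output genes 4 rose and 0 fell, with a median of 1.70. The lists were chosen with earlier results of these data known, so the shared direction within a list is a description and not a test. The counts of these 3 lists were again 4, 10 and 4 without the shallow library, but 3, 5 and 1 with only the 6 libraries fitted, and 1, 6 and 0 with only the 5 deeper ones, a fit chosen after seeing the data. Bhlhe41 and Ciart did not pass the count filter with only the 6 libraries and were not tested there. Without the third 0.3 µg/kg library the 3 counts were 2, 7 and 0, and the output count was 0 or 1 without any 1 vehicle library. The third 0.3 µg/kg library held the most extreme dosed value for most of the called clock genes, with Nr1d1 and Npas2 as exceptions. The hour of collection of each liver is not given in the sources used here.

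In the activator arm, Arntl, which encodes BMAL1, had 6.21, 11.5 and 1.12 CPM in the 0.3 µg/kg livers, against 33.9, 28.6 and 34.2 CPM in vehicle livers. All dosed livers were below all vehicle livers, the third by the most. It fell 8.30-fold (adjusted p = 0.00779), a call that was lost without the third dosed library (adjusted p = 0.140, and 0.00594 to 0.140 over the leave-one-out fits). The call was also lost with only the 6 libraries fitted (0.0807). Npas2, the alternative partner of BMAL1, had 1.85, 0 and 0.132 CPM, against 22.2, 11.6 and 21.0 CPM. No dosed liver came near a vehicle liver. Its log2 fold change was -4.27 (SE 0.65, adjusted p = 0.000705), the lowest of the 179 called genes, and it passed in all 6 leave-one-out fits.

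Nfil3, a repressor of D-box genes, measured 13.6, 8.62 and 6.79 CPM at 0.3 µg/kg, against 45.6, 25.6 and 49.96 CPM in vehicle livers. The second vehicle liver was the lowest of its group and still above every dosed liver. The gene fell 4.02-fold (adjusted p = 0.000432). Cry1, a cryptochrome repressor, had 5.10, 5.75 and 4.29 CPM, against 15.5, 13.4 and 15.4 CPM. Here the dosed values lay close together, although 1 count equals 2.87 CPM in the second library. The 3.12-fold fall (adjusted p = 0.00738) was lost only without the third dosed library among the leave-one-out fits (adjusted p = 0.162, range 0.0141 to 0.162). Clock (log2 fold change -0.76, adjusted p = 0.442) and Rora (-0.04, adjusted p = 0.996) were not called, and Rora was at 0.06 without the shallow library.

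On the other side, Dbp, a PAR bZIP activator under direct control of BMAL1, had 86.7, 103 and 192 CPM at 0.3 µg/kg, against 0.970, 1.05 and 1.28 CPM in vehicle livers. Even the lowest dosed liver was far above vehicle. The rise was 118-fold (log2 fold change 6.89, SE 0.54, adjusted p = 6.43e-08) and 6.97 on the log2 scale without the shallow library. Of the exonic sequence of Dbp, 18.0% overlaps a gene on the other strand, and how the counting treated strand is not given here. Per3, a period gene, had 25.0, 25.9 and 87.1 CPM, against 1.68, 1.67 and 1.24 CPM, with the third dosed liver well above the others. It was 33.6-fold higher (adjusted p = 7.76e-07).

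Nr1d1, which encodes REV-ERBα, reached 157, 218 and 170 CPM, against 36.2, 56.3 and 43.4 CPM. Its dosed livers were all above the vehicle livers and, unlike most of the group, the third was not the highest. The rise was 3.93-fold (adjusted p = 1.82e-05). Nr1d2, for REV-ERBβ, had 68.1, 28.7 and 102 CPM, against 13.6, 18.3 and 13.9 CPM, a 4.90-fold rise (adjusted p = 2.86e-06). Tef, another PAR bZIP factor, had 167, 101 and 325 CPM, against 35.1, 37.9 and 31.6 CPM (5.94-fold, adjusted p = 1.87e-05). For both genes the shallow library was the lowest dosed liver and the groups did not overlap.

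For 3 called genes of this arm the shallow library had no count, so the groups overlapped although the deeper libraries were apart. Bhlhe41, a repressor that binds E-boxes, had 3.99, 0 and 12.3 CPM at 0.3 µg/kg, against 0.299, 0.157 and 0.201 CPM in vehicle livers (log2 fold change 5.06, SE 0.44, adjusted p = 5.33e-08). Ciart, a repressor of the BMAL1 complex, had 1.404, 0 and 15.95 CPM, against 0.112, 0.471 and 0.201 CPM. Its 5.04 log2 fold change (SE 0.86, adjusted p = 0.00274) rests largely on the third library, without which the adjusted p was 0.438 (range 8.43e-05 to 0.438 over the leave-one-out fits). Per2, a period gene, had 13.4, 0 and 35.2 CPM, against 1.98, 3.56 and 2.25 CPM (8.60-fold, adjusted p = 0.000815). Per2 passed in each leave-one-out fit but not with only the 6 libraries fitted (adjusted p = 0.0672).

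Smaller rises were those of Cry2 (2.08-fold, adjusted p = 0.00738) and Bhlhe40 (2.45-fold, adjusted p = 0.0451). Cry2 lost its call without the third dosed library (adjusted p = 0.370) or the first vehicle library (0.0686). Bhlhe40 lost it without the third dosed library (0.513), without any vehicle library (0.147 to 0.164) and with the replicate number as a block (0.0731). Per1 had 11.3, 0 and 49.97 CPM, against 4.66, 11.98 and 4.17 CPM, and its groups overlapped (log2 fold change 2.00, SE 0.92, adjusted p = 0.474). Hlf was not called either (0.61, adjusted p = 0.231).

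Among output genes, Usp2, a deubiquitinase with a clock-driven transcript, had 10.9, 11.5 and 44.4 CPM at 0.3 µg/kg, against 2.46, 2.98 and 1.97 CPM in vehicle livers. The groups were apart and the third dosed liver stood well above the others. Its 10.6-fold rise (adjusted p = 0.0192), and those of the mitosis kinase gene Wee1 (6.19-fold, 0.00700), the NAD salvage gene Nampt (1.62-fold, 0.0232) and the coenzyme Q binding gene Coq10b (3.24-fold, 0.0313), were all lost without the third dosed library (adjusted p from 0.407 to 0.699) and without the first vehicle library (0.0526 to 0.119). Usp2, Nampt and Coq10b were lost without the second or the third vehicle library too. Rgs16, Lpin1 and Gys2 were not called, with log2 fold changes of 2.00, 0.95 and 0.88.

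**Figure D3:**
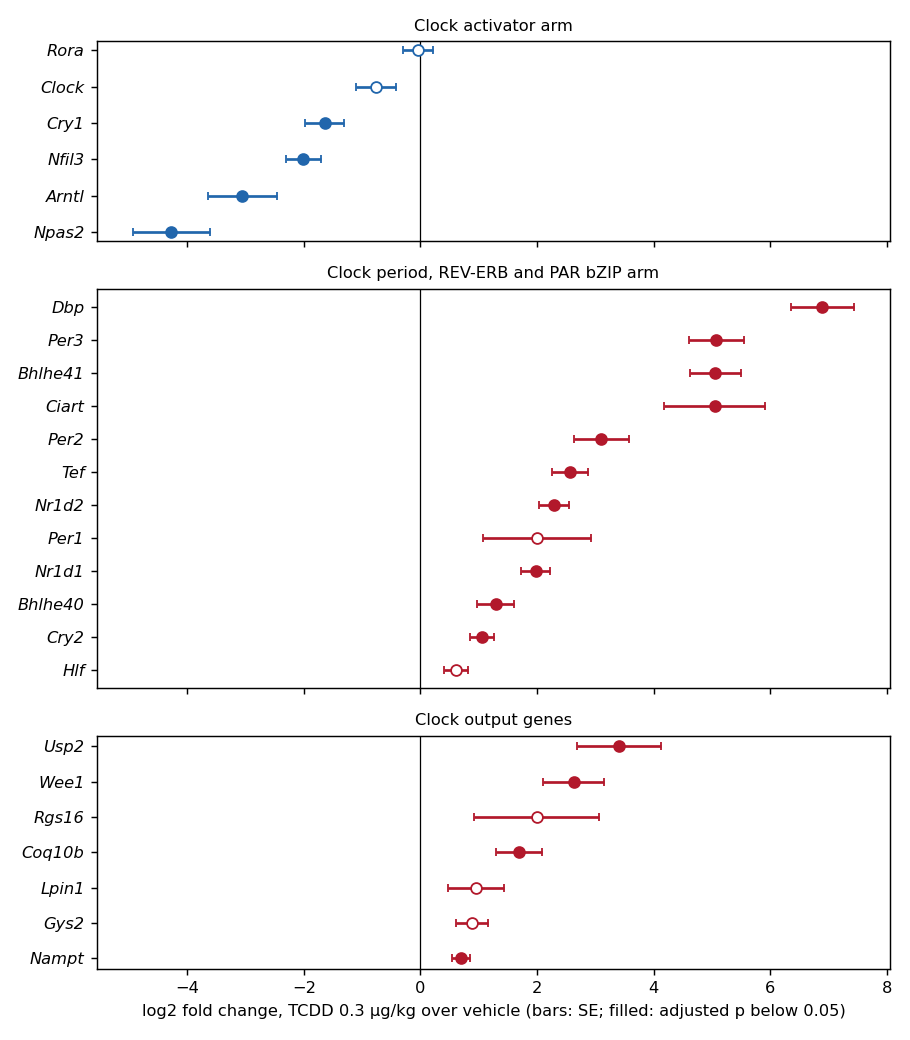
Log2 fold change of TCDD 0.3 µg/kg over vehicle with its standard error for the tested clock genes in 3 lists, without 1 gene of the activator arm that is not shown. Filled points passed an adjusted p below 0.05, red points lie above 0 and blue points below. The genes drawn for the activator arm lie below 0, Rora only just (it was at 0.06 without the shallow library), and the 12 period, REV-ERB and PAR bZIP genes all above it.

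The promoters of Ciart and Bhlhe41 are printed because they hold E-boxes (CACGTG, the same on both strands) as well as the AhR core, both in capitals, in the same 250-base window and format.
Ciart, chr3:95882229-95882478, minus strand: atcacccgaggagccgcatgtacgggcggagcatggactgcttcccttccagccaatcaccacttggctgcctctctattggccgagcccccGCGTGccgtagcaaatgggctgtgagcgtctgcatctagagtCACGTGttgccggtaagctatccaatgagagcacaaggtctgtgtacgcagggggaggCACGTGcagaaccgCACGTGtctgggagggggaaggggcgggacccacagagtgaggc
Bhlhe41, chr6:145865421-145865670, minus strand: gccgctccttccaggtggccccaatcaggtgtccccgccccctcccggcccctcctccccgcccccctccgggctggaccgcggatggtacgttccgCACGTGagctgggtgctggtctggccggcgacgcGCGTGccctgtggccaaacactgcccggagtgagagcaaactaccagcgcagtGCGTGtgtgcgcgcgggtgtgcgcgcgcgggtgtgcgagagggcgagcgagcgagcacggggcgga
Ciart holds 3 E-boxes, at 116, 58 and 44 bases before the start, and 1 GCGTG at 158. Bhlhe41 holds 1 E-box at 153 and 2 GCGTG at 119 and 66. Among promoters of tested genes 7.95% hold at least 1 CACGTG and 13 of 13932 (0.0933%) hold 3 or more. The share with a CACGTG was 15.6% of 109 promoters of called rises and 6.25% of 80 promoters of called falls, and for GCGTG it was 43.1% and 51.2%, beside 42.2% of promoters of tested genes. The 109 include the clock genes described above.

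Outside both groups, large rises were found in Nptx1, Snhg11 and Cyfip2. Nptx1, a secreted pentraxin best known at synapses, had 17.4, 20.1 and 12.4 CPM at 0.3 µg/kg, against 0.560, 0.418 and 0.281 CPM in vehicle livers. The dosed livers were similar to each other and all far above vehicle. Its rise was 35.6-fold (log2 fold change 5.15, SE 0.40, adjusted p = 9.63e-09) and 5.10 on the log2 scale without the shallow library. Snhg11, a long non-coding RNA gene that hosts small nucleolar RNAs, had 29.0, 22.99 and 42.1 CPM, against 2.05, 2.30 and 3.57 CPM (12.8-fold, adjusted p = 1.52e-06). Cyfip2, which belongs to the WAVE actin regulatory complex, had 15.9, 22.99 and 21.4 CPM, against 3.36, 2.20 and 3.01 CPM (6.60-fold, adjusted p = 4.24e-07). None of these 3 overlapped with vehicle, and each passed in all 6 leave-one-out fits.

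Cyp2a5, a P450 that oxidizes coumarin and nicotine, had 604, 715 and 1232 CPM in the 0.3 µg/kg livers, against 169, 115 and 131 CPM in vehicle livers. The third dosed liver was again the highest, and the 6.16-fold rise (adjusted p = 0.000181) passed in all 6 leave-one-out fits. Its close copy Cyp2a4 had 460, 503 and 772 CPM, against 207, 212 and 198 CPM. Reads that align to both genes of the pair can be left uncounted as not unique. The 2.82-fold rise of Cyp2a4 (adjusted p = 0.0398) passed in 1 of the 6 leave-one-out fits. They were 2 of 32 tested Cyp2 genes, where 0.622% of all tested genes rose, and the other 30 were not called. Cyp2e1, the most abundant of those, stood at 13106 ± 2663 CPM at 0.3 µg/kg and 7400 ± 795 CPM in vehicle livers (SD, n = 3 each, adjusted p = 0.160). Pkp1, a desmosomal plaque gene, was 5.40-fold higher at 2.27 ± 0.650 against 0.392 ± 0.350 CPM (adjusted p = 0.00630), and was lost without the first dosed library (0.0738).

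Among falls, Loxl4, a lysyl oxidase that crosslinks collagen, had 2.07, 0 and 1.65 CPM at 0.3 µg/kg, against 18.0, 25.4 and 26.6 CPM in vehicle livers. Every dosed liver was far below vehicle, and the 12.9-fold fall (log2 fold change -3.69, SE 0.36, adjusted p = 2.73e-07) was also found without the shallow library (-3.66). It was the 1 called gene of 32 matrix and crosslinking genes, where 0.562% of all tested genes fell. Their median log2 fold change was -0.28. In whole tissue, fewer cells of a type and less RNA per cell cannot be told apart. Slc34a2, a sodium-phosphate cotransporter, had 1.70, 0 and 1.06 CPM, against 9.07, 25.9 and 15.7 CPM, with vehicle livers spread over a wide range. It fell 12.5-fold (adjusted p = 0.00850) and lost its call without the third dosed library (adjusted p = 0.174, range 0.00732 to 0.174).

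The other falls of the rule for named genes were between 3.19-fold and 4.13-fold. They were Srgap3, for a GTPase-activating protein, Asap2, for an ARF GTPase-activating protein, the choline kinase gene Chka, the ubiquitin ligase gene Rnf144a, the receptor kinase gene Grk5, the oxidative stress response gene Osgin1 and the DNA methyltransferase gene Dnmt3b, with adjusted p from 0.00111 to 0.0273. Osgin1 had 156, 135 and 115 CPM at 0.3 µg/kg, against 559, 274 and 491 CPM in vehicle livers, so its groups were apart with a low second vehicle liver. Of the exonic sequence of Asap2, 11.7% overlaps another gene on the same strand. Each of these 7 calls was lost without the third dosed library, with adjusted p from 0.0792 to 0.285. Osgin1 was also lost without the first vehicle library (0.0505), Dnmt3b without the third (0.0524), and Chka without the second (0.0994) or the third (0.0806).

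Of 25 genes for triglycerides, uptake and droplets 2 rose and 0 fell, where 0.622% of all tested genes rose. Cd36, the fatty acid translocase, had 227, 293 and 154 CPM at 0.3 µg/kg, against 38.5, 60.8 and 78.5 CPM in vehicle livers. All dosed livers were above all vehicle livers, and the 3.69-fold rise (adjusted p = 0.000123) passed in all 6 leave-one-out fits. Lpin2, a phosphatidate phosphatase, was 2.23-fold higher (adjusted p = 0.0210) and was lost without the third dosed (0.309), second vehicle (0.117) or the third vehicle library (0.146). Of 24 fatty acid oxidation genes 1 rose: Acaa1a, the peroxisomal thiolase, had 246, 428 and 184 CPM, against 123.4, 148 and 141 CPM. Its shallow library was the highest, and without it the log2 fold change was 0.63 in place of 1.00 and the call was lost (adjusted p = 0.211), as it was without any vehicle library (0.0698 to 0.151). Of the fatty acid synthesis (19), cholesterol synthesis (22), bile acid synthesis (16) and bile acid transport (16) genes 0 were called by edgeR. Their median log2 fold changes were 0.04, 0.11, 0.01 and 0.28. Scd1, the main hepatic desaturase, had 3295, 9749 and 14346 CPM, against 11885, 14362 and 16354 CPM, with a low first dosed liver (adjusted p = 0.664).

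In conjugation and stress pathways, 2 of 19 NRF2 and glutathione genes rose, where 0.622% of all tested genes rose. Of the 19, 16 had a positive log2 fold change, with a median of 0.30 against -0.023 over all tested genes. Gstp1, a glutathione transferase, had 131, 425 and 145 CPM at 0.3 µg/kg, against 53.3, 61.7 and 88.1 CPM in vehicle livers. The shallow library stood far above the other dosed libraries, and without it the log2 fold change was 1.01 in place of 1.67 (adjusted p = 0.0454 in place of 0.00803). The call was lost without the first (0.0694) or second vehicle library (0.0541). Gstp2 is a near-identical copy, so reads that align to both genes can be left uncounted. Ugdh, which makes UDP-glucuronate, was 1.95-fold higher at 201, 348 and 235 CPM, against 145, 121 and 125 CPM (adjusted p = 0.0103). It was lost without the shallow library (0.0913), the third dosed library (0.0549) or the second or the third vehicle library (0.0754 and 0.0806). Of 18 genes of ER and integrated stress 1 rose, Trib3, a pseudokinase induced by ATF4, at 11.8, 25.9 and 21.0 CPM against 4.63, 4.34 and 5.66 CPM (3.54-fold, adjusted p = 0.00226, and 0.123 without the third dosed library). Of the glucuronosyltransferases (12), sulfotransferases (12), Cyp3a genes (8) and flavin monooxygenases (5) 0 were called.

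Single falls stood alone in several other lists, where 0.562% of all tested genes fell. The lists held 20 nuclear receptor and hepatocyte factor genes (Ppard) and 28 of glycolysis, gluconeogenesis and glycogen (Ppp1r3b). Others held 20 one-carbon and methionine genes (Gldc), 14 Cyp4 genes (Cyp4f17) and 9 thyroid hormone genes (Thra). Ppard, the nuclear receptor PPARδ, had 6.21, 0 and 7.38 CPM at 0.3 µg/kg, against 17.05, 18.9 and 22.7 CPM in vehicle livers. The groups were clearly apart, and the 3.02-fold fall (adjusted p = 0.00166) passed in all 6 leave-one-out fits. Ppp1r3b, which targets a phosphatase to glycogen, had 122, 54.6 and 88.3 CPM, against 167, 441 and 202 CPM (2.87-fold lower, adjusted p = 0.0162). It was lost without the shallow library (0.0684), the third dosed library (0.140) or the second vehicle library (0.136). Gldc (glycine decarboxylase, 1.69-fold lower, 0.0365), Cyp4f17 (a member of the Cyp4 family of fatty acid hydroxylases, 1.88-fold lower, 0.0382) and Thra (thyroid hormone receptor α, 1.97-fold lower, 0.0241) each passed in 1 or 2 of the leave-one-out fits. Gldc also missed the threshold with RLE (0.0519) and upper-quartile factors (0.0915).

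Of 19 tested genes induced by interferon 1 fell and 0 rose, where 0.562% of all tested genes fell. The number of falls depended on the method: 3 with DESeq2, 5 with limma-voom and sample weights, and 3 with the replicate number as a block. It was 0 without the third dosed, the first vehicle or the third vehicle library. All 19 had a negative log2 fold change, with a median of -0.56 against -0.023 over all tested genes. Rtp4, a receptor transporter gene induced by interferon, had 14.9, 2.87 and 11.4 CPM at 0.3 µg/kg, against 29.0, 20.6 and 22.1 CPM in vehicle livers, where the shallow value is 1 count. It was 1.92-fold lower (adjusted p = 0.0313), and the call was lost without the third dosed (0.282), the first vehicle (0.186) or the third vehicle library (0.0547). Bst2, the most abundant uncalled member, had 159, 256 and 132 CPM, against 256, 143 and 187 CPM, and its groups overlapped. The summed level of the list was 375, 468 and 314 CPM at 0.3 µg/kg, against 648, 410 and 487 CPM in vehicle livers, which also overlapped. Of 22 chemokine and cytokine genes 0 were called, with a median of -0.49.

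No marker of another cell type was called. All 10 sinusoidal endothelial markers were below 0 (median log2 fold change -0.25), as were 9 of 10 Kupffer cell markers (-0.33), 8 of 9 stellate markers (-0.29) and 8 of 10 markers of recruited macrophages and monocytes (-0.44). Summed Kupffer markers were at 271, 339 and 448 CPM at 0.3 µg/kg, against 580, 405 and 367 CPM in vehicle livers, with overlap. Summed endothelial markers were at 252, 368 and 433 CPM, against 483, 392 and 365 CPM. The first dosed and the first vehicle liver were the extremes in both sums, and the interferon sum was also highest in the first vehicle liver. The part of these cells in the interferon and matrix values was not tested. Neutrophil markers summed to 0 to 5.02 CPM at 0.3 µg/kg and 3.30 to 6.01 CPM in vehicle livers, with the defining marker Ly6g at 0 in all 6. Stellate markers summed to 394 to 621 CPM at 0.3 µg/kg and 457 to 727 CPM in vehicle livers, and recruited macrophage markers to 31.6 to 76.9 CPM at 0.3 µg/kg and 66.0 to 94.7 CPM in vehicle livers. The third vehicle library held 93.9 CPM of skeletal muscle markers, against at most 0.0746 CPM in the other 5 libraries.

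**Figure D4:**
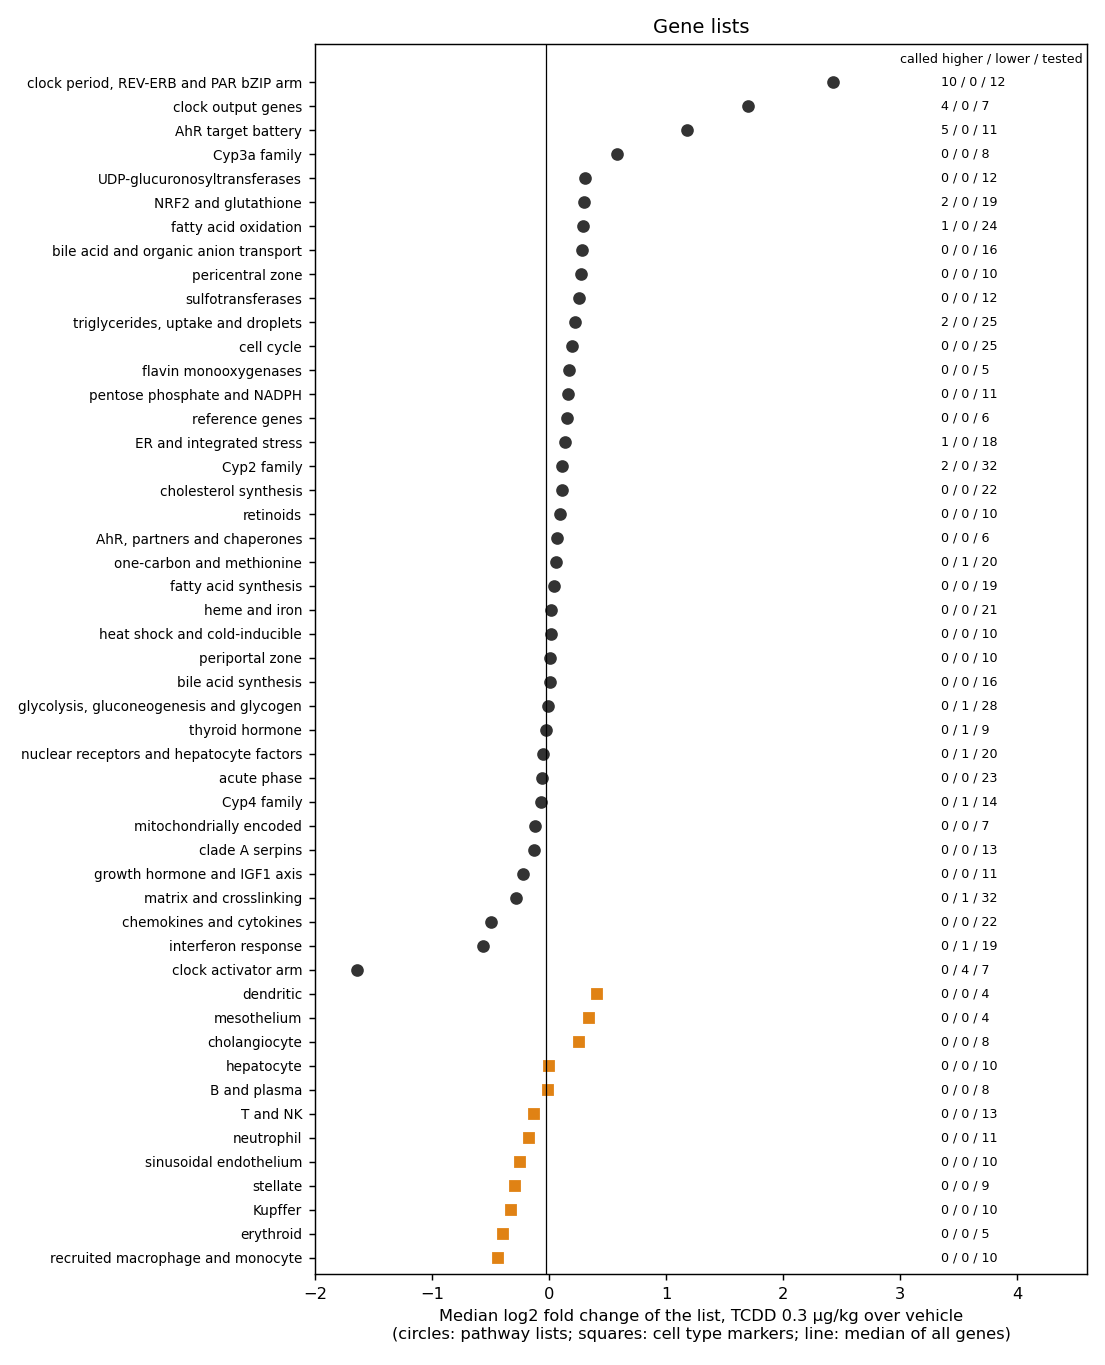
Median log2 fold change of TCDD 0.3 µg/kg over vehicle for each list with at least 4 tested members, with the number of members called higher, called lower and tested at the right. Circles are pathway lists, squares are cell type markers, and the line marks the median of all tested genes at -0.023. The clock lists and the AhR battery lie farthest from the line.

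Against the next lower dose, 0.1 µg/kg, 3 genes were called at 0.3 µg/kg (0.0198% of 15121), and 627 had an unadjusted p below 0.05. These were Ahrr, Nptx1 and Cyp1a1, all higher. Ahrr had 0.134, 0.175 and 0.108 CPM in the 0.1 µg/kg livers, a 23.03-fold difference (log2 fold change 4.53, SE 0.41, adjusted p = 4.68e-07). Nptx1 had 3.94, 2.05 and 1.62 CPM at 0.1 µg/kg, with a fold of 6.02 (adjusted p = 0.000237). Cyp1a1 had 1333, 1129 and 1239 CPM at 0.1 µg/kg, a 2.48-fold difference (adjusted p = 0.0148). Ahrr and Nptx1 passed under every alternative tried, and Cyp1a1 was lost without the shallow library (adjusted p = 0.120) and without any other library of the 2 doses except the first at 0.3 µg/kg (0.107 to 0.228). For the clock genes the steps were not called, among them Dbp (1.32, adjusted p = 1), Per3 (1.82, 0.277) and Arntl (-1.84, 1).

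The next higher dose, 1 µg/kg, had 771 genes above and 310 below their level at 0.3 µg/kg (1081 genes, 7.15% of those tested). Leaving out the first 0.3 µg/kg library gave 120 calls, and the count was 289, 1716 and 698 without the first, second and the third 1 µg/kg library, and 15 with only the 6 libraries fitted. Of the AhR battery 4 members were called higher, where 5.1% of all tested genes were. Cyp1b1 had 161, 135 and 122 CPM at 1 µg/kg and was 60.4-fold higher than at 0.3 µg/kg (log2 fold change 5.92, adjusted p = 6.01e-11). Ahrr (2.59, adjusted p = 1.32e-06), Tiparp (1.45, adjusted p = 0.00736) and Nqo1 (0.73, adjusted p = 0.0264) were also higher. Tiparp lost this call without the third 0.3 µg/kg library (0.0508) or the first 1 µg/kg library (0.0534). Nqo1 lost it without the shallow library (0.0516), the first 0.3 µg/kg library (0.172), or the first or second 1 µg/kg library (0.0598 and 0.0618). Cyp1a1 (0.39, SE 0.22, adjusted p = 0.313) and Cyp1a2 (0.15, SE 0.22, adjusted p = 0.770) were not called.

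Of other genes named at 0.3 µg/kg, Nptx1 was 4.29-fold higher (adjusted p = 0.000598) and Cyfip2 2.75-fold higher (adjusted p = 0.00209, and 0.0524 without the first 0.3 µg/kg library). Gldc (log2 fold change -0.97, adjusted p = 0.00337) and Cyp4f17 (-0.74, 0.0446), called falls at 0.3 µg/kg, were lower still. Acaa1a, a called rise there, was lower at 1 µg/kg (-0.82, 0.0326). Without the shallow library Cyp4f17 (0.0658) and Acaa1a (0.220) were not called. Of all 94 rises 11 were called further up at 1 µg/kg and 3 back down. Of the 85 falls 12 were called further down and 0 back up. Over all tested genes 5.1% were called higher and 2.05% lower at 1 µg/kg. The 94 and 85 were called with the same 0.3 µg/kg libraries, so these counts are a description and not a test. Of the 26 clock genes only Nampt was called between these doses (log2 fold change 0.56, adjusted p = 0.0312), and it was lost without any library left out except the third at 0.3 µg/kg (0.0590 to 0.206). The largest falls by the rule were in Cyp4a14, a fatty acid hydroxylase, Csad, a taurine synthesis enzyme, the pseudogene Hsp25-ps1, the imprinted non-coding RNA gene Rian and Mup3, a major urinary protein. Csad had 21.6, 18.7 and 40.0 CPM at 1 µg/kg, against 260, 230 and 110 CPM at 0.3 µg/kg (7.36-fold lower, adjusted p = 0.000192 and at most 0.0454 under every alternative). The falls of Cyp4a14 (11.6-fold, adjusted p = 0.0281), Hsp25-ps1 (6.51-fold, 0.0313), Rian (5.08-fold, 0.00397) and Mup3 (4.77-fold, 0.0127) each lost their call without at least 1 library, with adjusted p up to 0.129, 0.282, 0.0750 and 0.0748. The largest rises were in the neutrophil genes S100a8, Ngp, Camp, Ltf and Cd177. S100a8 had 224, 1.43 and 52.1 CPM at 1 µg/kg, against 0.295, 0 and 0.0659 CPM at 0.3 µg/kg, and the livers at 1 µg/kg were unlike each other. Camp and Cd177 had no count in any 0.3 µg/kg library. All 5 lost their call without the first 0.3 µg/kg library (adjusted p from 0.0665 to 0.178), and Ngp, Camp, Ltf and Cd177 also without the third 0.3 µg/kg library (0.0637 to 0.143) or the first 1 µg/kg library (0.0543 to 0.139). None of the 5 passed with limma-voom and sample weights (0.107 to 0.278), nor did S100a8 with only the 6 libraries fitted (0.333).

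**Figure D5:**
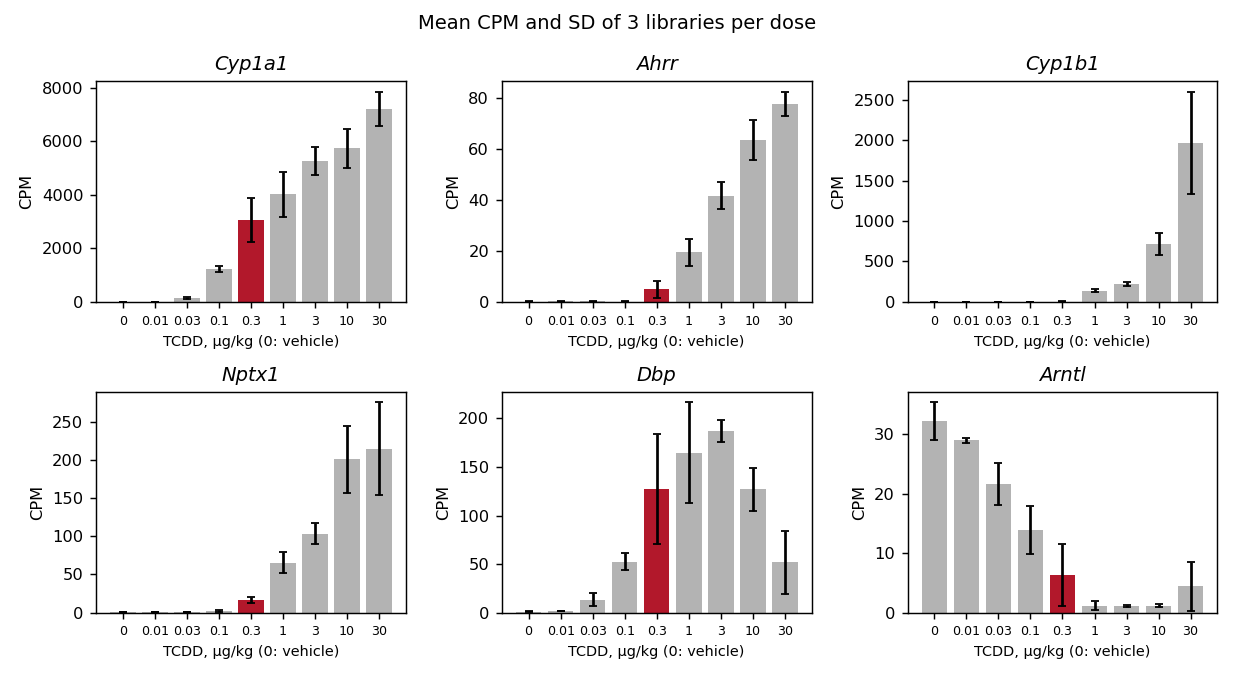
Mean CPM and SD of 3 libraries at each dose, from vehicle (0) to 30 µg/kg, for 6 genes, with the 0.3 µg/kg group in red. Ahrr leaves the vehicle level at 0.3 µg/kg (4.91 ± 3.32 CPM), while Cyp1b1 is at 3.38 ± 2.11 CPM there and 140 CPM on average at 1 µg/kg. Arntl is at 6.27 ± 5.19 CPM at 0.3 µg/kg and 32.2 ± 3.14 CPM in vehicle livers.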

How the data were processed

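Total liver RNA (27 libraries) was sequenced, and per the labels' protocols it was isolated in TRIzol, with an Illumina TruSeq RNA kit used for the libraries. Per the submitters' processing notes, the tools named were FastQC 0.11.2, cutadapt 1.4.1, TopHat 1.4.1, SAMtools 0.1.19, HTSeq 0.6.1 and DESeq, with GRCm38. No source used here gives the annotation release or how strand was treated. The deposited values are raw read counts per gene, 41388 identifiers per library, of which 40254 matched a symbol. The 5 summary lines were left out of library sizes and tests. Reads assigned to no feature made up 5.62% to 10.2% in the 0.3 µg/kg libraries and 8.56% to 9.54% in the vehicle libraries. Ambiguous reads and alignments that were not unique were also among these lines. The latter made up 40.6% to 48.7% at 0.3 µg/kg and 38.1% to 47.2% in vehicle libraries, of the total with them included.

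Groups came from the labels. All 27 libraries entered 1 edgeR 4.0.16 quasi-likelihood fit (R 4.3.3) with TMM scaling, a filter for low counts with a minimum of 10, robust dispersion and 1 term per dose group. This left 15121 genes, and p-values were adjusted over all of them (Benjamini-Hochberg). The standard error is the log2 fold change divided by the square root of F. CPM used TMM-scaled library sizes, and means are given with the SD over 3 libraries. The fit was also run on data simulated from its own estimates of spread. Such data cannot show how it treats a liver unlike its group, and no result here rests on them.

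The genes and lists were chosen with earlier results of these data known. The text names the members of the AhR battery and clock lists, except 1 that is counted in its list but not reported here, the 12 largest rises and 12 largest falls among called genes with at least 1 CPM and no overlap between groups, up to 3 called genes and 1 uncalled gene of other lists, and the 5 largest changes each way for neighbouring doses. Members that gave nothing beyond these values are covered by counts. Promoters are RefSeq's on GRCm38.p6, 250 bases upstream, matched for 20 of 23 called battery and clock genes. The 5 printed were picked for their matches after these were seen. Exon overlaps come from the GRCm38 annotation.

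Alternatives were RLE and upper-quartile scaling, DESeq2 1.42.0, limma 3.58.1 voom with sample weights, other filters, the compared libraries alone, no robust dispersion, a replicate block and leaving out each library.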

Additional observations from a re-analysis of the deposited data

How the results depend on the processing

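For TCDD 0.3 µg/kg against vehicle, the 179 calls became 273 with DESeq2, 347 with limma-voom and sample weights, and 106 with only the 6 compared libraries. Leaving out 1 library gave 53 to 240 calls. A fit of the 5 deeper libraries alone, chosen after seeing the data, gave 47. Of the 179 genes, 25 were called in all 17 settings (19 higher and 6 lower) and 37 in all 6 fits that left out 1 library. The 17 include the main fit and the fit chosen after seeing the data. A gene that a setting did not test was counted as not called there. Bhlhe41, untested with the 6 libraries alone, is not among the 25 for that reason only. Against 0.1 µg/kg, the 3 calls became 11 with DESeq2, 6 with limma-voom and 7 with the 6 libraries alone, and 2 to 9 when 1 library was left out. For 1 µg/kg against 0.3 µg/kg, the 1081 calls became 705 with limma-voom and 15 with the 6 libraries alone, and 120 to 1716 when 1 library was left out. The cause of these shifts was not tested. The other settings gave counts within 1.5 times the main ones, and no named gene that was called changed direction in any setting. Uncalled genes near 0 did, among them Ahr, Rora and Tiparp.

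Groups share replicate numbers, but no label pairs the samples. Same-numbered livers correlated at -0.00422, -0.0166 and -0.05 in their deviations from the group means over 2000 genes. With 3 livers per group, and the shallow library in the second pair, these values cannot exclude a shared litter or day. With the number as a replicate block 192, 3 and 1175 genes were called in these 3 comparisons.

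Depth limits low values in the second 0.3 µg/kg library, where 3 counts are 8.62 CPM, against at most 0.222 CPM in the others of its group, and 17 of the 94 rises and 10 of the 85 falls had no count there.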

Other observations

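The genes in this section were chosen after their values were seen. Among called genes outside the lists, Slc46a3, a lysosomal membrane transporter gene, had 103, 97.7 and 177 CPM at 0.3 µg/kg, against 31.4, 24.2 and 22.8 CPM in vehicle livers. It was 4.97-fold higher (edgeR adjusted p = 5.63e-05) and passed in all 6 fits that left out 1 library. Htatip2, an oxidoreductase gene, had 146, 305 and 151 CPM, against 49.2, 55.3 and 63.7 CPM (3.38-fold, adjusted p = 5.84e-05), with the shallow library highest and no overlap. Ucp2, a mitochondrial carrier gene, had 140, 167 and 76.01 CPM, against 41.0, 43.6 and 34.7 CPM (3.07-fold, adjusted p = 0.000809). Flcn, which encodes folliculin, a regulator of nutrient signalling at lysosomes, was 1.94-fold higher at 55.2, 54.6 and 71.7 CPM, against 35.4, 27.4 and 32.99 CPM (adjusted p = 0.000320). Both Ucp2 and Flcn passed in all 6 of those fits. Fnip2, for a binding partner of folliculin, was 2.41-fold higher (adjusted p = 0.00111) but missed the threshold without the third dosed library (0.108).

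Among falls outside the lists, Helz2, a helicase gene, had 120, 83.3 and 121 CPM at 0.3 µg/kg, against 226, 209 and 213 CPM in vehicle livers. The groups were well apart, and the 1.93-fold fall (adjusted p = 0.00111) passed in all 6 fits that left out 1 library (0.00304 to 0.00728). It missed the threshold with only the 6 compared libraries fitted (0.0523) and with only the 5 deeper ones (0.0627).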
